A study of Homo sapiens with 4 samples.

Results

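Wnt signalling genes were examined in poly(A) RNA from cells labelled as SH-SY5Y, an established human neuroblastoma line, in 2 libraries given shock wave treatment (SWT) and 2 untreated control libraries. SWT sends a train of acoustic pressure pulses into culture. Per the labels' protocols, flasks stood in a water bath at 37 °C, 7 cm from the applicator, and received 300 impulses at 0.08 mJ/mm2 and 3 Hz. RNA was isolated 6 h afterwards, while the series design text speaks instead of exosomes, so which exposure was used is not settled by these sources. The genes were chosen by symbol alone: all Wnt ligands, Frizzled receptors, SFRP, DKK and RSPO genes, LGR4, LGR5 and LGR6, and LRP5, LRP6, FRZB, WIF1, AXIN2 and KREMEN1. They came to 50 of the 28058 genes in the count table. By role, 19 were ligands, 10 were Frizzled receptors, 10 were secreted antagonists, 7 were R-spondins or LGR receptors, and AXIN2 stood alone. The other 3 were the co-receptors LRP5 and LRP6 and, grouped with them, KREMEN1, which acts with DKK proteins.

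Wnt proteins are secreted, lipid-modified ligands that bind Frizzled receptors on the surface of neighbouring cells. Together with LRP5 or LRP6 as co-receptor, the canonical branch keeps beta-catenin from being degraded, and beta-catenin then acts with TCF/LEF factors at target genes. Other branches signal through ROR or RYK receptors to the cytoskeleton and to calcium. DKK proteins block LRP5 and LRP6, SFRP proteins and FRZB bind the ligands themselves, and R-spondins acting through LGR receptors slow the removal of Frizzled from the membrane. Wnt signals pattern the neural crest, the embryonic source of sympathetic neurons from which neuroblastoma arises.

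Total counts per library were 10043697 and 11686808 in SWT and 11647603 and 9888263 in control, and 1 count was worth 0.0858 to 0.101 CPM (the usual library-size scaling of counts, here with TMM factors). A count of 0 allowed a level of up to 0.257 to 0.303 CPM, counting error only. Noradrenergic markers, which this line is known to express, were largely missing or low. PHOX2A, TH, DBH, CHGA and MYCN had 0 counts in all 4 libraries. HAND2 alone was above 10 CPM in each, and ISL1, GATA3 and CHGB had 53 to 77, 23 to 33 and 15 to 24 counts per library. Of 10 mesenchymal markers, 9 reached 10 CPM in every library. Of 8 fibroblast and smooth muscle markers, 5 did so too. The 10 heart muscle markers summed to 28.0 and 9.61 CPM in SWT and to 7.49 and 293 CPM in control, so control replicate 2 carried most of them. With at least 20 counts, none of the 50 Wnt genes stood 5-fold above its level in every other library in control replicate 2, or in any of the other libraries. Nothing in the labels says that replicates were separate cultures, and every p-value here is set against library-to-library spread that may be technical.

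Of the 50 genes, 24 passed the filter on low counts and were tested, and the other 26 stayed under 1 CPM in every library. Those 26 included 13 genes with 0 counts in all 4 libraries. A 0 in this table need not mean that a gene makes no transcript, since CSNK1E and SCRIB, used by most cells, are also listed at 0 in every library. The ligands among these 13 were WNT1, WNT2, WNT3A, WNT8A, WNT8B and WNT9B. All 4 R-spondin genes, FZD10, DKK4 and WIF1 were also at 0. The remaining 13 had between 1 count, for WNT6, WNT7A, SFRP2 and SFRP4, and 30 counts, for WNT2B, summed over the 4 libraries. WNT2B exons overlap those of ST7L on the opposite strand, which had 119 to 162 counts per library, and whether reads were counted by strand is not given in the sources used here.

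Some ligands with reads lie beside ligands without any. In GENCODE release 29 on GRCh38, WNT9A (chromosome 1, 227918656 to 227947898) lies 59.2 kb from WNT3A, and the pair had 3363 and 0 counts over the 4 libraries. WNT10B (chromosome 12, 48965340 to 48971763) lies 6.7 kb from WNT1, with 527 and 0 counts. The pair WNT6 and WNT10A on chromosome 2, 6.1 kb apart, had 1 and 5 counts. WNT3 and WNT9B, adjoining on chromosome 17, had 5 and 0. Each of the first 2 neighbouring pairs therefore held a ligand with many counts and a ligand listed at 0.

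Promoter sequences from RefSeq (GRCh38.p14, the 250 bases before the annotated start) were at hand for 33 of the 50 genes. WNT9A, the highest ligand, and its closest relative WNT9B, at 0, are shown to set the promoter of a ligand with many counts beside that of a ligand listed at 0. DKK1 is shown because it had the highest fold change by value of the 24. Capitals mark the TCF/LEF core CTTTGA and the TATA box TATAAA, each searched on both strands, so the core also appears as TCAAAG. The windows are chr1:227947933-227948182 (minus strand), chr17:46851333-46851582 (plus strand) and chr10:52314031-52314280 (plus strand).
WNT9A: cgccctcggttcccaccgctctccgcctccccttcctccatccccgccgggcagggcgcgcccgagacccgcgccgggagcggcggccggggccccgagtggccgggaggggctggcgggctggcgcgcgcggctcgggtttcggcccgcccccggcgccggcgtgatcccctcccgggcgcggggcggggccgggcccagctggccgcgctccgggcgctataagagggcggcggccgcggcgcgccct
WNT9B: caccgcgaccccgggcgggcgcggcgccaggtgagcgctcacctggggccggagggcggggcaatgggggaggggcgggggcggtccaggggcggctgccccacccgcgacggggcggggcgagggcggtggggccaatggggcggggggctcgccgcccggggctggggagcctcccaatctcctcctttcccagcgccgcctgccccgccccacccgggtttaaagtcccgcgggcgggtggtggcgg
DKK1: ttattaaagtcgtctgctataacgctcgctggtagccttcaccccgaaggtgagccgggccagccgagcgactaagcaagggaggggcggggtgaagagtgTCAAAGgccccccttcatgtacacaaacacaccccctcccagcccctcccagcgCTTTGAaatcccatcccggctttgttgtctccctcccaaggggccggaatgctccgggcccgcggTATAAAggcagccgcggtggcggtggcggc
The WNT9A and WNT9B windows were alike in G or C content, at 84.4% and 81.2%, while WNT9A had 3363 counts and WNT9B was listed at 0. The WNT9A window had more CpG dinucleotides, 44 against 31, and a higher ratio of observed to expected CpG, 0.99 against 0.77. Neither holds either motif. The DKK1 window is 62.8% G or C and was the only one of the 33 to hold the TCF/LEF core, which it holds on each strand. That core was found in 11.361% of 27305 promoters of the same length. DKK1 also holds the TATA box, as does FZD8 among the 33, against 11.133% of all promoters. A match in these letters is a description and not a shown binding site.

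Most untested Wnt genes had promoters rich in CpG. The median ratio of observed to expected CpG was 0.721 in the 22 untested Wnt genes with a promoter, from 0.226 to 1.16, and 0.803 in the 11 tested ones, from 0.533 to 0.989. Over the whole table it was 0.344 for 8013 untested genes and 0.825 for 9583 tested ones. A ratio of at least 0.6 was found for 17 of the 22 untested Wnt genes, 77.3%, and for 32.0% of all untested genes. Among tested genes with a promoter, it was found for 81.8% of Wnt genes and 80.7% of all genes. The Wnt genes are all annotated as protein-coding, while the whole table also lists microRNAs and antisense RNAs, so the untested sets are not alike in gene type. The part of gene type in their difference was not tested. These ratios and shares are descriptions of sequence, with no test. Wnt genes without a promoter entry were AXIN2, DKK2, DKK3, DKK4, FZD2, FZD3, FZD6, FZD7, FZD10, KREMEN1, LGR5, LRP6, RSPO2, SFRP1, WNT7B, WNT10B and WNT11.

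**Figure D1:**
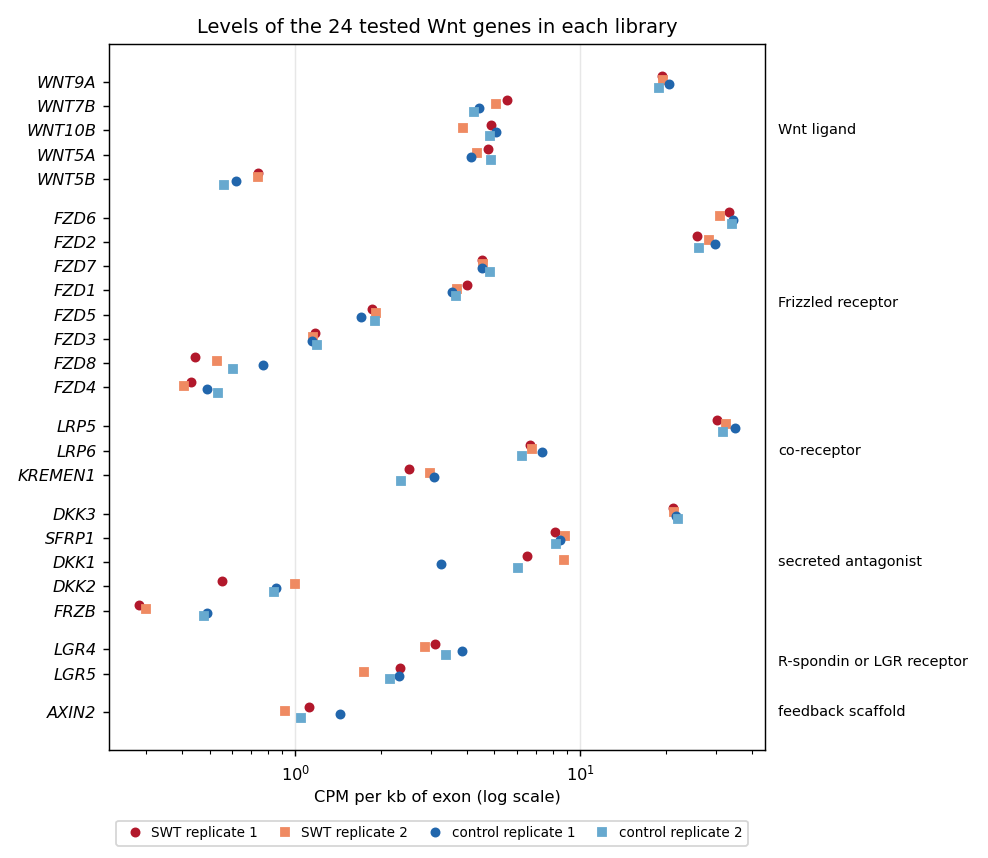
Level of each of the 24 tested genes in each library, as CPM per kb of exon on a log scale, grouped by role, with SWT replicates in red and orange and control replicates in dark and light blue. FZD6, FZD2, LRP5, DKK3 and WNT9A lie well above the other genes of their roles in all 4 libraries, and DKK1 has the lowest point of its row in control replicate 1.

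To compare genes with one another, CPM was divided by the length of all annotated exons of each gene. On this scale WNT9A was the leading ligand at 19.5 ± 0.639 CPM per kb over the 4 libraries (SD, n = 4). WNT7B, WNT10B and WNT5A followed at 4.82 ± 0.60, 4.65 ± 0.521 and 4.52 ± 0.348 CPM per kb, with ranges over the libraries that overlapped from each to the next. WNT5B came last at 0.664 ± 0.0872 CPM per kb. WNT9A made up 54.5% and 57.8% of the summed ligand level per length in the SWT libraries and 58.8% and 56.3% in the control libraries. With the longest transcript as length, its mean share was 51.5% in place of 56.9%. The set therefore joined WNT9A, WNT7B and WNT10B, which are known to act through beta-catenin in several tissues, with WNT5A and WNT5B, the main ligands of the ROR branch.

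Among the receptors, FZD6 and FZD2 stood apart from the rest. FZD6, a receptor tied to planar cell polarity, was at 33.1 ± 1.54 CPM per kb and FZD2, a receptor for WNT5A among other ligands, was at 27.4 ± 1.92 (SD, n = 4), and the FZD6 range lay above that of FZD2. Next came FZD7 at 4.60 ± 0.146 and FZD1 at 3.73 ± 0.190 CPM per kb. FZD6 and FZD2 together with the 8 lower genes gave a Frizzled sum in which FZD6 held 45.4 ± 1.62% and FZD2 37.5 ± 1.98%. FZD4 exons overlap those of PRSS23 on the opposite strand, which had 2374 to 2816 counts per library against 32 to 42 for FZD4, so the low FZD4 value is uncertain. Of the co-receptors LRP5 stood at 32.3 ± 1.99 and LRP6 at 6.75 ± 0.457 CPM per kb, a ratio of 4.79 ± 0.230 that ranged from 4.52 to 5.08 over the libraries.

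The antagonists were led by DKK3, a divergent member of the DKK family that is not known as a strong LRP blocker, at 21.6 ± 0.402 CPM per kb. SFRP1, which binds Wnt ligands, stood at 8.43 ± 0.317, DKK1, the classical LRP blocker, at 6.15 ± 2.28, DKK2 at 0.811 ± 0.186 and FRZB at 0.387 ± 0.112 (SD, n = 4). SFRP1 and DKK1 had overlapping ranges. DKK1 had the largest SD of these 5 relative to its mean. LGR4 and LGR5, the receptors for R-spondins, stood at 3.30 ± 0.430 and 2.13 ± 0.269 CPM per kb with no R-spondin read in any library. AXIN2, a scaffold of the beta-catenin destruction complex that is itself a direct target of the pathway, was low at 1.13 ± 0.219 CPM per kb. Its exons overlap those of AC004805.1, a protein-coding gene on the same strand that is not among the counted genes. Whether this overlap lowered the AXIN2 counts was not tested. In all 6 roles the order was the same with the longest transcript as length, except that WNT5A and WNT10B changed places. Levels moved more: DKK3 was at 41.2 CPM per kb and WNT5B at 1.24 on that length, and the mean ratio of DKK3 to SFRP1 was 4.61 in place of 2.56.

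The comparison of SWT with control asks whether the treated cells differed in these genes 6 h later. With edgeR's quasi-likelihood test and Benjamini-Hochberg adjustment over 12399 genes, 0 of the 24 tested Wnt genes were called higher and 0 lower, where 0% of all tested genes were called. Adjusted p-values of the 24 ran from 0.838 to 0.998. At an unadjusted p under 0.05 there were 3 of 24, 12.5%, where 5.77% of all tested genes reached it: DKK1 and WNT7B, higher by value in SWT (2.81% of all genes), and LGR4, lower by value (2.96% of all genes). DESeq2, limma-voom and limma on the deposited log2 values also called 0 of them. The deposited values gave far smaller differences, 0.088 for DKK1 and -0.0095 for FRZB, against 0.75 and -0.73 with edgeR. A call or its absence on that scale is therefore not a like comparison. The groups did not overlap for 10 of 24, 41.7%, against 35.3% of all tested genes. In 4 of these both SWT libraries were higher (17.3% of all genes) and in 6 both were lower (18% of all genes). The median log2 fold change of the 24 was -0.040, with 8 above 0 and 16 below, beside a median of -0.00078 and 49.7% above 0 over all tested genes. Without control replicate 2 the median was -0.11, over the 25 Wnt genes that passed the filter in that fit. With length and GC trends removed it was -0.027. Over 6293 abundant genes, SWT minus control had a Spearman correlation of -0.40 with GC content. For control replicate 2 minus 1 it was -0.48, and for SWT replicate 2 minus 1 it was 0.38. The part of this trend in the sign counts was not tested.

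**Figure D2:**
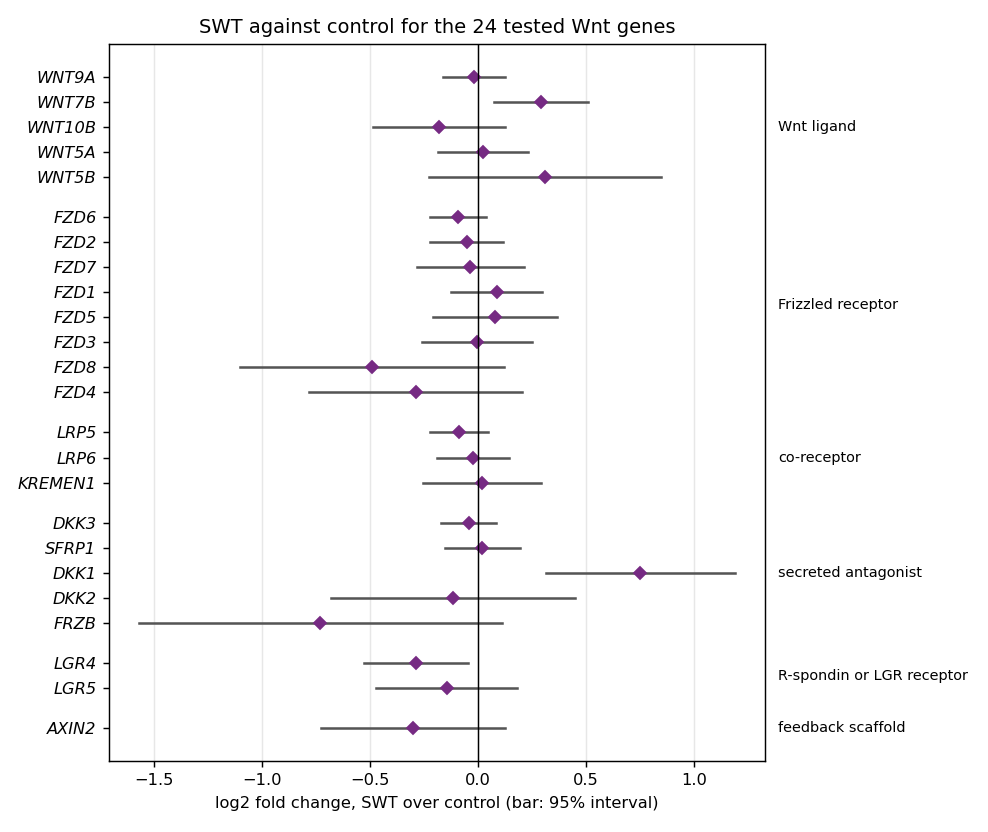
Log2 fold change of SWT over control for the 24 tested genes (diamond) with its 95% interval from the edgeR fit (bar), grouped by role. The interval of DKK1 (0.31 to 1.19), that of WNT7B (0.07 to 0.51) and that of LGR4 (-0.53 to -0.05) leave out 0 before adjustment, and the others span it.

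DKK1 (chromosome 10, 52314296 to 52318042), whose protein blocks LRP5 and LRP6 and whose gene is a known target of beta-catenin in several cell types, had the highest log2 fold change of the 24. It had 145 and 226 counts, or 14.4 and 19.4 CPM, in the SWT libraries, against 83 and 132 counts, or 7.14 and 13.3 CPM, in the control libraries. Both SWT libraries were above both controls, but SWT replicate 1 was close to control replicate 2, and the controls differed from each other by more on the log2 scale than the groups did. The log2 fold change was 0.75 (SE 0.21, 95% interval 0.31 to 1.19, edgeR adjusted p = 0.838), from means of 16.9 ± 3.54 CPM in SWT and 10.2 ± 4.38 CPM in control (SD, n = 2 each). Counting error alone gave 12.1 to 16.9 CPM for SWT replicate 1, 16.9 to 22.1 for SWT replicate 2, 5.69 to 8.86 for control replicate 1 and 11.2 to 15.8 for control replicate 2 (exact Poisson 95% intervals). The 2 control intervals did not meet, so the controls differed by more than counting error.

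**Figure D3:**
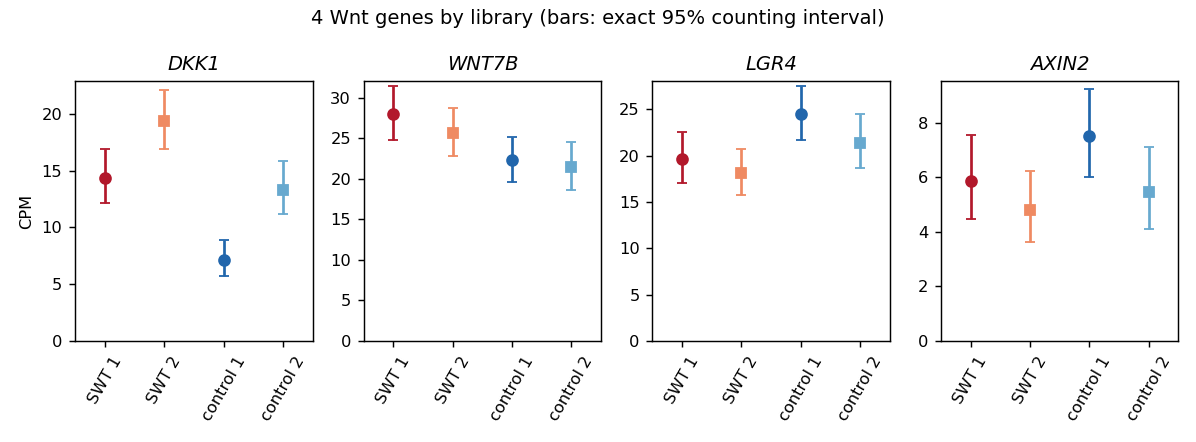
CPM of DKK1, WNT7B, LGR4 and AXIN2 in the SWT libraries (red, orange) and the control libraries (dark and light blue), with exact Poisson 95% intervals as bars. DKK1 reaches from 7.14 CPM in control replicate 1 to 19.4 CPM in SWT replicate 2, a wider spread than in the other panels.

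Which libraries were set against each other decided the DKK1 value. SWT replicate 2 minus control replicate 1, the libraries with the fewest heart muscle reads, gave a log2 difference of 1.44, and SWT replicate 1 minus control replicate 2 gave 0.11. Between the controls, replicate 2 minus 1, it was 0.90, and between the SWT libraries 0.43. With 1 library left out, the log2 fold change of DKK1 was 1.25 without control replicate 2 and 0.94 without SWT replicate 1. It was 0.35 without control replicate 1 and 0.51 without SWT replicate 2. Such a fit leaves a group of 1 library with no spread of its own, so its p-value is not given. With no filter on low counts edgeR called DKK1 at an unchanged 0.75 (adjusted p = 1.16e-04). With length and GC trends taken out library by library it stood at 0.74 (edgeR adjusted p = 0.397). Over all alternatives the log2 fold change of DKK1 was above 0. PRKG1-AS1, whose exons overlap DKK1 on the opposite strand, had 0 to 3 counts per library. The part of the heart muscle reads in the DKK1 difference was not tested.

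**Figure D4:**
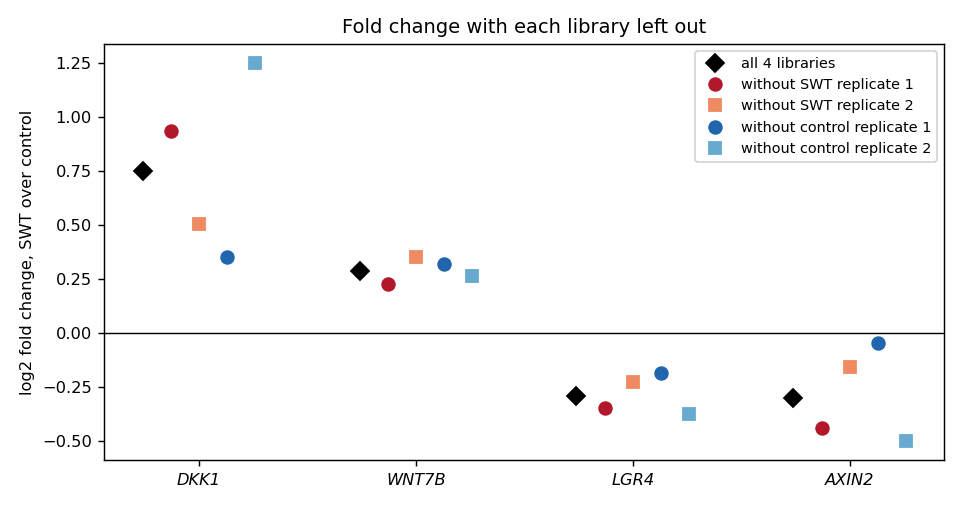
Log2 fold change of SWT over control for 4 genes with all libraries (black diamond) and with each library left out (red and orange for SWT replicates, blue for control replicates). DKK1 lies between 0.35 and 1.25, while WNT7B stays between 0.23 and 0.36.

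Of the ligands, WNT7B (chromosome 22, 45920362 to 45977129), a ligand of the canonical branch with roles in dendrite growth and in brain vessels in mice, had 28.0 and 25.6 CPM in SWT against 22.3 and 21.4 CPM in control. Both SWT libraries stood above both controls, and the libraries of each group lay close together. The log2 fold change was 0.29 (SE 0.10, 95% interval 0.07 to 0.51, edgeR adjusted p = 0.838), which did not pass. It ranged from 0.23 to 0.36 with each library left out, and was 0.34 with the length and GC trends removed. WNT5B, at 3.17 and 3.17 CPM in SWT against 2.67 and 2.42 in control, also had both SWT libraries above, from 24 to 37 counts per library, and was named after its values were seen. WNT9A, the leading ligand, had 76.8 and 77.5 CPM in SWT against 81.1 and 75.1 CPM in control. Its groups overlapped, and its 95% interval of -0.16 to 0.12 on the log2 scale spans differences of at most 0.16 log2 units. WNT5A had 35.2 and 32.2 CPM in SWT against 30.5 and 36.0 in control, and WNT10B 12.8 and 10.2 against 13.3 and 12.6, both with overlapping groups. The WNT10B log2 fold change of -0.18 was -0.017 without SWT replicate 2 and -0.34 without SWT replicate 1. WNT5A exons are not overlapped by WNT5A-AS1, which lies on the other strand within the gene's span.

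Of the 8 tested Frizzled receptors none passed the test, and 6 had log2 fold changes below 0. FZD6 had 135 and 126 CPM in SWT against 139 and 138 CPM in control, a log2 fold change of -0.09 (SE 0.06 and, by edgeR, adjusted p = 0.893), with both SWT libraries below both controls. It was -0.037 without SWT replicate 2 and -0.15 without SWT replicate 1. FZD2 had 54.2 and 59.6 CPM in SWT against 62.8 and 55.1 in control, and its sign turned without control replicate 1 (0.051) or SWT replicate 1 (0.012). FZD1, a widely expressed canonical receptor, had 27.9 and 25.6 CPM against 24.8 and 25.6, so its lower SWT library was hardly above the higher control, and its 0.09 ranged from 0.027 to 0.15 with each library left out. FZD7, a receptor linked to stem and crest cells, had 17.5 and 17.6 CPM in SWT against 17.4 and 18.6 in control, with overlapping groups. FZD8 had 18 and 25 counts, or 1.79 and 2.14 CPM, in SWT against 36 and 24 counts, or 3.10 and 2.42 CPM, in control, a log2 fold change of -0.49 (SE 0.29 and, by edgeR, adjusted p = 0.870). Both SWT libraries were below both controls, and the value was -0.29 with control replicate 1 left out and -0.64 with control replicate 2 left out. FZD5 and FZD3 stood at 0.08 and -0.0034, and FZD4 at -0.29 on the log2 scale. The 95% interval lay within 0.5 log2 units of 0 for 6 of the 8 tested Frizzled genes, all but FZD8 and FZD4.

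Neither the co-receptors LRP5 and LRP6 nor KREMEN1, grouped with them, passed the test. LRP5 had 186 and 201 CPM in SWT against 215 and 195 CPM in control, a log2 fold change of -0.09 (SE 0.06 and, by edgeR, adjusted p = 0.902), with overlapping groups. With single libraries left out it ranged from -0.15 for control replicate 2 to -0.013 for control replicate 1. LRP6 had 68.9 and 69.8 CPM in SWT against 76.0 and 64.6 in control, and both SWT values lay between the controls. KREMEN1, which helps DKK proteins to remove LRP6 from the membrane, had 202 and 276 counts in SWT against 283 and 185 in control, and its SWT levels in CPM again lay between the controls. For all 3 the 95% interval lay within 0.5 log2 units of 0.

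The other secreted antagonists did not share the DKK1 pattern by value. DKK3 had 107 and 108 CPM in SWT against 110 and 112 CPM in control, with a log2 fold change of -0.04 (SE 0.06, 95% interval -0.17 to 0.085). SFRP1 had 38.7 and 42.1 CPM against 40.5 and 39.3, with overlapping groups. DKK2 had 2.38 and 4.29 CPM in SWT and 3.70 and 3.64 in control, so the SWT libraries differed from each other more than the groups did. FRZB had 9 and 11 counts in SWT against 18 and 15 in control, or 0.893 and 0.943 CPM against 1.55 and 1.52 CPM. Both SWT libraries were below both controls, but the log2 fold change of -0.73 (SE 0.40, 95% interval -1.57 to 0.11, edgeR adjusted p = 0.853) rested on these few reads. FRZB passed the filter through its control libraries, since of the SWT libraries only replicate 2 reached 0.922 CPM. Its value and its place among the genes lower in both SWT libraries carry that choice. The share of DKK1 in the antagonist sum per length was 17.8% and 21.8% in SWT against 9.29% and 16.0% in control.

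LGR4 (chromosome 11, 27365961 to 27472775), the widely expressed R-spondin receptor, had 19.6 and 18.1 CPM in SWT against 24.4 and 21.4 CPM in control. Both SWT libraries were below both controls, with a log2 fold change of -0.29 (SE 0.11, 95% interval -0.53 to -0.05, edgeR adjusted p = 0.838) that did not pass. It ranged from -0.38 to -0.19 with each library left out, the smaller size being that without control replicate 1. LGR5, a stem cell marker in the gut, had 12.2 and 9.18 CPM against 12.1 and 11.3, with overlapping groups. AXIN2 (chromosome 17, 65528563 to 65561647) had 59 and 56 counts, or 5.85 and 4.80 CPM, in SWT against 87 and 54 counts, or 7.49 and 5.46 CPM, in control. Control replicate 1 was the highest of the 4 and the other libraries overlapped, and the log2 fold change of -0.30 (SE 0.20, 95% interval -0.73 to 0.13, edgeR adjusted p = 0.893) was -0.04 without that library. By value AXIN2 was lowest in SWT replicate 2, where counting error alone gave 3.63 to 6.24 CPM (exact Poisson 95% interval). That interval overlapped the 4.10 to 7.12 CPM of control replicate 2. DKK1 was highest in SWT replicate 2, and a link between these genes was not tested.

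For 15 of the 24 genes the 95% interval lay within 0.5 log2 units of 0, 62.5% beside 77.6% of all tested genes, and for 21 within 1 log2 unit, 87.5% beside 93.3%. The exceptions to the wider limit were DKK1, FRZB and FZD8. Summed over all 50 genes, Wnt reads came to 902 and 913 CPM in SWT and 951 and 909 CPM in control.

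The rest of the pathway was read from 6 lists holding 141 genes of the table, of which 110 were tested. With edgeR 0 of the 110 passed in either direction, 64 lay above 0, where 49.7% of all tested genes did, and 46 below, and the median log2 fold change was 0.019. The lists were chosen with earlier results of these data known, and some genes stand on 2 of them. At an unadjusted p under 0.05 there were 7 higher and 2 lower by value, where 2.81% of all tested genes were higher and 2.96% lower. NDP and NFATC2, among these 7, and DACT3, among the 64 above 0, passed the filter through their SWT libraries. The 7 and the 64 carry that choice.

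Genes for the making and release of Wnt proteins were present. WLS, the carrier that brings Wnt proteins to the surface, had 106 and 114 CPM in SWT against 112 and 104 in control, and PORCN, the acyltransferase that attaches their lipid, had 6.65 and 5.75 against 6.80 and 6.16. Both are named for their role and not by the rule for named genes. Of the 11 genes of the list 6 lay above 0, with a median of 0.029. TMED2 and TMED10, cargo receptors of the early secretory pathway, stood at 0.10 and 0.04, and SNX3, of the retromer route that recycles WLS, at 0.12. NOTUM, a secreted enzyme that removes the lipid from Wnt proteins and a target of the pathway, had 1.19 and 1.20 CPM in SWT against 2.07 and 2.63 CPM in control. Its log2 fold change was -0.95 (SE 0.34 and, by edgeR, adjusted p = 0.838), and both SWT libraries lay below both controls.

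The list of non-canonical receptors and planar polarity genes had 24 tested members, 13 above 0 and 11 below, with a median of 0.029. RHOA and RAC1, small GTPases of the cytoskeleton and its most abundant members, stood at -0.04 and 0.04. MAPK8, the kinase JNK1, had 48.1 and 46.5 CPM in SWT against 40.2 and 43.4 in control, a log2 fold change of 0.18 (SE 0.08 and, by edgeR, adjusted p = 0.843). NFATC2, a calcium-responsive factor, stood at 0.94 from levels under 2 CPM, and PRICKLE4 at -0.46. With 0.707 CPM in control replicate 2, under the filter, NFATC2 passed it through its SWT libraries, so its value carries that choice. Among 12 tested genes of receptor turnover and other extracellular regulators, 9 lay above 0. CTHRC1, a secreted protein that in mice favours the ROR2 branch, had 33.2 and 35.7 CPM in SWT against 39.6 and 38.7 in control, a log2 fold change of -0.18. NDP, the Frizzled 4 ligand norrin, had 14 and 11 counts in SWT against 3 and 6 in control. It passed the filter through its SWT libraries, so its value of 1.43 carries that choice, and TRABD2B stood at -0.57 with levels under 2 CPM. ADGRA2 and ATP6AP2, the most abundant of this list, stood at -0.08 and 0.03.

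No gene of the cytoplasmic machinery or of the nuclear factors passed the test. CTNNB1, the beta-catenin gene, had 312 and 305 CPM in SWT against 314 and 297 CPM in control, a log2 fold change of 0.01 (SE 0.06, 95% interval -0.10 to 0.13). Of 27 tested cytoplasmic genes 14 lay above 0, with a median of 0.013. The highest, DACT3 at 0.65, had 1.09 and 1.11 CPM in SWT against 0.689 and 0.707 CPM in control. It passed the filter through its SWT libraries, so its value carries that choice, and it was named after its values were seen. PPP2R1A, a phosphatase scaffold, stood at -0.09, AMER1, a partner of APC, at -0.26 and DVL2, a Dishevelled adaptor, at -0.13. Of 22 tested nuclear factors 10 lay above 0, with a median of -0.019. BCL9L and SMARCA4, the most abundant, stood at -0.05 and -0.01, CTBP1, a co-repressor, at 0.10 and PYGO2 at -0.07. CTNND1, placed with the nuclear factors by the list, stood at -0.32 from 22 to 36 counts per library. LEF1, a target as well as a factor of the pathway, had 0 counts in all 4 libraries.

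**Figure D5:**
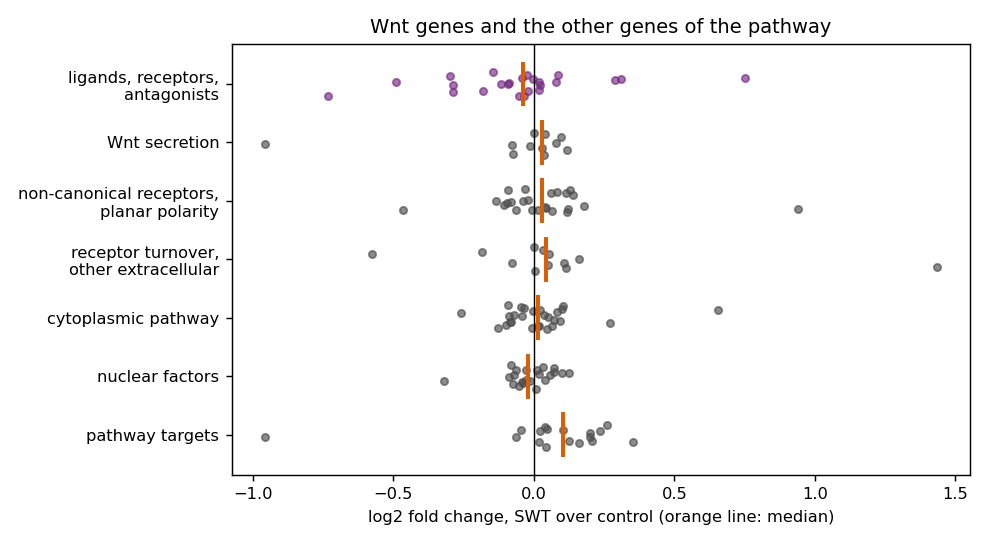
Log2 fold change of SWT over control for each tested gene (points, spread vertically for sight) of the ligand, receptor and antagonist set (top) and of 6 lists of the pathway, with the median of each as an orange line. Medians lie between -0.040 and 0.10, and the list of targets has 14 of 17 genes above 0.

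The last list held genes known as targets of the pathway. AXIN2, LGR5 and DKK1, also targets, are counted with the ligands, receptors and antagonists and not here. Of 17 tested, 14 lay above 0, where 49.7% of all tested genes did, and the median was 0.10. None passed the test, and no set test was run. CCND1, the cyclin D1 gene, had 733 and 697 CPM in SWT against 580 and 665 CPM in control, a log2 fold change of 0.20 (SE 0.06 and, by edgeR, adjusted p = 0.838). JUN, an AP-1 subunit, had 51.1 and 59.6 CPM against 45.1 and 47.8, a value of 0.26 (SE 0.08). Both have regulators outside the Wnt pathway as well, and both had their SWT libraries above both controls. CCND1 was called without control replicate 2 (0.30, edgeR adjusted p = 3.82e-07) and without a filter (0.20, adjusted p = 0.0304), and JUN without control replicate 2 (0.30, edgeR adjusted p = 0.0449). CCND1 was at 0.11 without control replicate 1 (edgeR adjusted p = 0.599), and JUN at 0.14 without SWT replicate 2 (edgeR adjusted p = 1.00). CD44, the most abundant target, stood at 0.04. The feedback genes AXIN2, outside this list, and NOTUM, which act back on the pathway, stood at -0.30 and -0.95, ZNRF3 at 0.16 and TCF7 at 0.12, while NKD1, an inhibitor of Dishevelled, had 0 counts in every library and SP5 and RNF43 had 2 and 1 counts in all. ZNRF3, TCF7, NKD1, SP5 and RNF43 were named after their values were seen.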

How the data were processed

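RNA was sequenced from 2 SWT and 2 control libraries made with a poly(A) kit that keeps strand, per the labels. The deposited tables hold raw counts for each gene symbol and, for 17151 genes, log2 values, whose exact transformation is not given in the sources used here. Because these were logs already, no pseudocount was added. The submitters' processing notes name hg38, STAR 2.5.3a, HTSeq, Trimmomatic 0.36, DESeq2 and FastQC 0.11.5, with no role. Annotation and strand setting are not given in the sources used here.

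With edgeR 4.0.16 (R 4.3.3), counts were scaled by TMM, filtered with filterByExpr (about 0.922 CPM in at least 2 libraries) and compared by its quasi-likelihood F-test. Benjamini-Hochberg adjustment ran over 12399 genes, and calls were made at 0.05. The biological coefficient of variation was 4.32%. Each SE is the size of the log2 fold change divided by the root of F, and 95% intervals use the t distribution. Poisson intervals and the limit of 3 counts for a count of 0 cover counting error only. Alternatives were DESeq2 1.42.0, limma 3.58.1 (voom, and the log2 values as deposited), other scalings, no filter, genes averaging 50 counts or more, a replicate block, an adjusted p of 0.1, each library left out, and spline trends with length and GC content removed (known for 97.4% of tested genes). The crossed pairing and the longest transcript as length were added after the data were seen. The fit was tested on simulated data. Lengths and coordinates come from GENCODE release 29, matched for all 50 genes. Figures used matplotlib 3.10.9.

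The genes and lists were chosen with earlier results of these data known. Genes given by library are, for each role, up to 4 with the highest mean CPM, plus the 6 with the smallest p-values overall. For each pathway list they are the 3 with the smallest p-values and the 2 with the highest CPM. FOSL1 and PLAUR lie outside this rule, as do WNT5B and other genes marked so where they appear. A further noradrenergic marker is not reported here.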

Additional observations from a re-analysis of the deposited data

How the results depend on the processing

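The count of 0 Wnt genes called was also found with scaling by upper quartile or by DESeq2 size factors, for genes averaging 50 counts or more, under the replicate block, with length and GC trends removed, at a threshold of 0.1, and with DESeq2, limma-voom and limma on the deposited log2 values, where differences were far smaller. It was 1 with no filter, DKK1, and 0 to 1 with each library left out. The cause of the difference made by the filter was not tested. Pathway list genes called numbered 1 with no filter, CCND1, and 0 to 4 with each library left out, where FOSL1 and PLAUR joined CCND1 and JUN without control replicate 2. Over all genes the count was 63 with no filter, 1 under the replicate block, 1 with the length and GC trends removed, and 17 to 203 with each library left out, where a lone library is assumed to vary like the other group. Same-numbered deviations correlated at -0.283 across 6324 genes, and the crossed pairing gave 97 genes, 1 of them a Wnt gene and 2 on the pathway lists.

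Small log2 fold changes crossed 0 when a library was left out. The ranges were -0.62 to 0.22 for DKK2, -0.14 to 0.051 for FZD2, -0.085 to 0.012 for FZD7, -0.15 to 0.23 for KREMEN1, -0.36 to 0.056 for LGR5, -0.13 to 0.10 for LRP6, -0.044 to 0.077 for SFRP1, -0.097 to 0.14 for WNT5A and -0.070 to 0.040 for WNT9A. Among list genes they were -0.0040 to 0.24 for SNX3, -0.018 to 0.095 for TMED10, -0.0098 to 0.094 for RAC1, -0.089 to 0.013 for RHOA, -0.21 to 0.084 for ADGRA2, -0.0013 to 0.069 for ATP6AP2, -0.025 to 0.055 for CTNNB1, -0.24 to 0.0031 for DVL2, -0.15 to 0.061 for BCL9L, -0.041 to 0.016 for SMARCA4 and -0.00097 to 0.081 for CD44. Without crossing 0, values moved by over 1.5 times for PRICKLE4 (-0.64 to -0.28), CTNND1 (-0.55 to -0.14), AMER1 (-0.34 to -0.17), TMED2 (0.039 to 0.16) and NDP (0.91 to 2.11). Removal of the length and GC trends also turned FZD2 to 0.0068, WNT5A to -0.012, WNT9A to 0.025, CTNNB1 to -0.015 and SMARCA4 to 0.028. Precision is limited by 2 libraries a group and, under about 5 CPM, by counts below 60.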

Other observations

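Receptors and polarity genes of the non-canonical branch, named after their values were seen, were expressed in all 4 libraries. ROR1 had 41.9 and 45.4 CPM in SWT against 43.8 and 36.3 CPM in control, and ROR2 had 23.5 and 29.3 against 31.0 and 22.9, with groups that overlapped for both. RYK had 70.1 and 72.4 CPM in SWT against 72.5 and 78.4 in control, where both SWT libraries lay below. VANGL1, a membrane protein of planar polarity, had 83.5 and 81.4 CPM against 80.4 and 69.9, while its relative VANGL2 had 2 counts over the 4 libraries. None passed edgeR's test, with adjusted p-values of 0.870 to 0.992.

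FOSL1, an AP-1 subunit, had 140 and 142 CPM in SWT against 104 and 137 CPM in control, and PLAUR, the urokinase receptor, had 69.9 and 73.9 against 58.4 and 67.4. Both had log2 fold changes above 0, at 0.24 and 0.20, with an edgeR adjusted p of 0.838 for each, and control replicate 1 held the lowest value of both, as for CCND1, JUN and DKK1.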
